A study of Mus musculus with 10 samples.

Results

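Ribosome biogenesis genes and related Myc targets were followed in 5 mouse B-cell lymphomas, each measured without treatment and after Adriamycin. The 48 genes named for this purpose were nucleolar, small nucleolar ribonucleoprotein (snoRNP), RNA polymerase I, ribosomal subunit assembly, translation, metabolic and mitochondrial genes. A gene was represented by the probe set that carried its symbol and no other and had the highest mean over the 10 arrays. This gave 46 of the 48 genes, out of 18193 genes with such a probe set, and all 46 passed the filter on low signal that left 11472 genes for testing. Mrto4 and Phb had no such probe set, so their expression is not analysed here, and they enter only the promoter windows.

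The cells were primary lymphomas from lymph nodes of Emu-myc mice that lacked the histone H3 lysine methyltransferase Suv39h1 (Emu-myc;Suv39h1-/-). In Emu-myc mice an immunoglobulin heavy chain enhancer drives a Myc transgene in the B-cell lineage. All cells of both groups had been transduced with a retroviral Bcl2 (MSCVpuro), which protects from apoptosis, selected with puromycin for 48 h and grown on irradiated NIH 3T3 fibroblasts. The untreated group holds 5 arrays, and the ADR group holds the same 5 lymphomas after 5 days in culture with Adriamycin (ADR, doxorubicin, a DNA-damaging cytostatic drug) at 0.05 µg/ml. The question stated for the series is how loss of Suv39h1 bears on drug-induced senescence, and no Suv39h1-proficient lymphoma is compared here. The animals' age is not given in the sources used here, and no probe set named Suv39h1 was used, so that the genotype was not checked on the arrays. Lymphomas are called lymphoma_5783, lymphoma_7890, lymphoma_9250, lymphoma_1032 and lymphoma_4936, and wherever 5 signals are given they run in that order. Signals and changes are on the log2 scale, on which a difference of 1 is a 2-fold difference, and probe sets of different genes are not compared in level.

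Ribosomes are assembled in the nucleolus: RNA polymerase I transcribes the ribosomal RNA precursor, snoRNPs guide its chemical modification, and a long series of assembly factors folds and trims it into the small and large subunits. Myc is a transcription factor that binds the E-box CACGTG together with its partner Max, and genes of ribosome assembly, of polyamine and nucleotide metabolism and of translation are among its best known targets. In B-cell lymphomas with deregulated Myc this programme is part of the growth of the tumour cells.

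E-boxes in the promoters are shown first, since Myc is the factor these genes are known for. RefSeq promoter windows (GRCm38.p6, 250 bases before to 50 after an annotated start) were matched for 42 of the 48 genes. The E-box CACGTG, which reads the same on both strands, stood in the windows of 14 of the 42 genes (33.3%), against 11.7% of the tested genes with a window and 8.09% of all 27025 genes in the table. The related motif CACGCG, searched with its reverse complement CGCGTG, stood in 16 of the 42 (38.1%), against 19.8% and 10.5%. A window can hold both motifs, and a match only describes the sequence. Among genes tested for expression, the share with CACGTG was 33.3% (10 of 30) for those whose level differed between lymphomas by the test described further on. It was 30% (3 of 10) for those that did not pass it. The stretches printed here, 5′ to 3′ on the strand of the gene with the E-box in capitals, are those of genes that passed that test and have the motif before the start. It begins at position -44 in Exosc5, -13 in Prmt3, -64 in Eif4e, -60 in Nop2 and -121 in Imp4, counted from the start.
Exosc5 (chr7:25659069-25659152, + strand): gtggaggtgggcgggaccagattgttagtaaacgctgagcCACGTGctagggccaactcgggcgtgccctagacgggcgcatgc
Prmt3 (chr7:49778305-49778357, + strand): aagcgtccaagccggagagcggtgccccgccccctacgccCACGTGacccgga
Eif4e (chr3:138527164-138527249, + strand): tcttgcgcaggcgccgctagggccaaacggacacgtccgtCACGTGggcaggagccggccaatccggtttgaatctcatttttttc
Nop2 (chr6:125131783-125131868, + strand): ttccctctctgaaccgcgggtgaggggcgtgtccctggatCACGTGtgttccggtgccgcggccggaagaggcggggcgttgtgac
Imp4 (chr1:34439668-34439753, + strand): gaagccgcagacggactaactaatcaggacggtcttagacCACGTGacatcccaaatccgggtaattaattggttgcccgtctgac
Eif4e has a further E-box at position -228 of the same window. The remaining genes with the motif in a window were Grwd1, Wdr43, Mybbp1a, Pes1, Nle1, Utp20, Hspd1, Eif4a1 and Phb.

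The arrays themselves had medians between 4.43 and 4.50 over all probe sets on 9 arrays and 4.15 on the ADR array of lymphoma_1032. Signal differences between 3′ and 5′ control probes, a measure of RNA quality, lay between 0.28 and 0.79 for beta-actin and between -0.04 and 0.20 for Gapdh. The B-cell genes Cd79a (8.80 to 10.77 on the untreated arrays) and Cd79b were well above the filter in every lymphoma. Pax5 and Fcrla were near or under the filter level of 4.43 in lymphoma_1032. Pax5, low on all untreated arrays (4.89 to 5.59), had 4.89 untreated and 4.23 with ADR there, and Fcrla had 5.13 and 4.36. The B-cell gene Ms4a1, which encodes CD20, differed between lymphomas (adjusted p = 0.000546), from 10.98 in untreated lymphoma_5783 to 5.09 in untreated lymphoma_1032.

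The 46 genes varied more with the lymphoma than with the drug. Ribosome biogenesis genes had their lowest untreated signal in lymphoma_1032 in 40 of 46 cases, against 25.4% of all tested genes and 28.2% of the 7945 genes that passed a stricter filter on signal. The other 4 untreated lymphomas exceeded lymphoma_1032 by a median of 1.12 over the 46 genes, which is 2.18-fold, and by up to 2.14 (4.40-fold) for Ppan, a factor of large subunit assembly. The genes with another order were Npm1, Nop16, Eif4a1, Eif4e and Aimp2, lowest in lymphoma_5783, and Odc1, lowest in lymphoma_4936. Highest untreated signals were divided among lymphoma_9250 with 19 genes, lymphoma_7890 with 15 and lymphoma_4936 with 12.

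The moderated F-test of limma, which asks whether a gene differs among the 5 lymphomas by more than the arrays of a pair do after the mean drug effect, called 34 of the 46 genes (73.9%) at an adjusted p below 0.05, against 26.9% of all 11472 genes. Among genes passing the stricter filter it called 36 of the 46, against 39.6%. Lymphoma accounted for a median of 88.5% of the sum of squares of these genes, treatment for 4.18% and the residual for 7.62%. Over all genes tested the shares were 72.5%, 4.03% and 19.0%. Lymphoma has more degrees of freedom in this split than treatment, so the 2 shares are not like for like. A lymphoma also cannot be told apart here from the handling of its own cultures and arrays. The median SD over untreated lymphomas was 0.56 for the 46 genes and 0.35 for all genes. The calls rested on lymphoma_1032: without it 5 of the 46 genes (10.9%) passed, against 10.3% of all genes, namely Nolc1, Polr1a, Rcl1, Eif4e and Srm. With each array centred on its median 20 of the 46 passed (43.5%), against 28.5%.

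**Figure D1:**
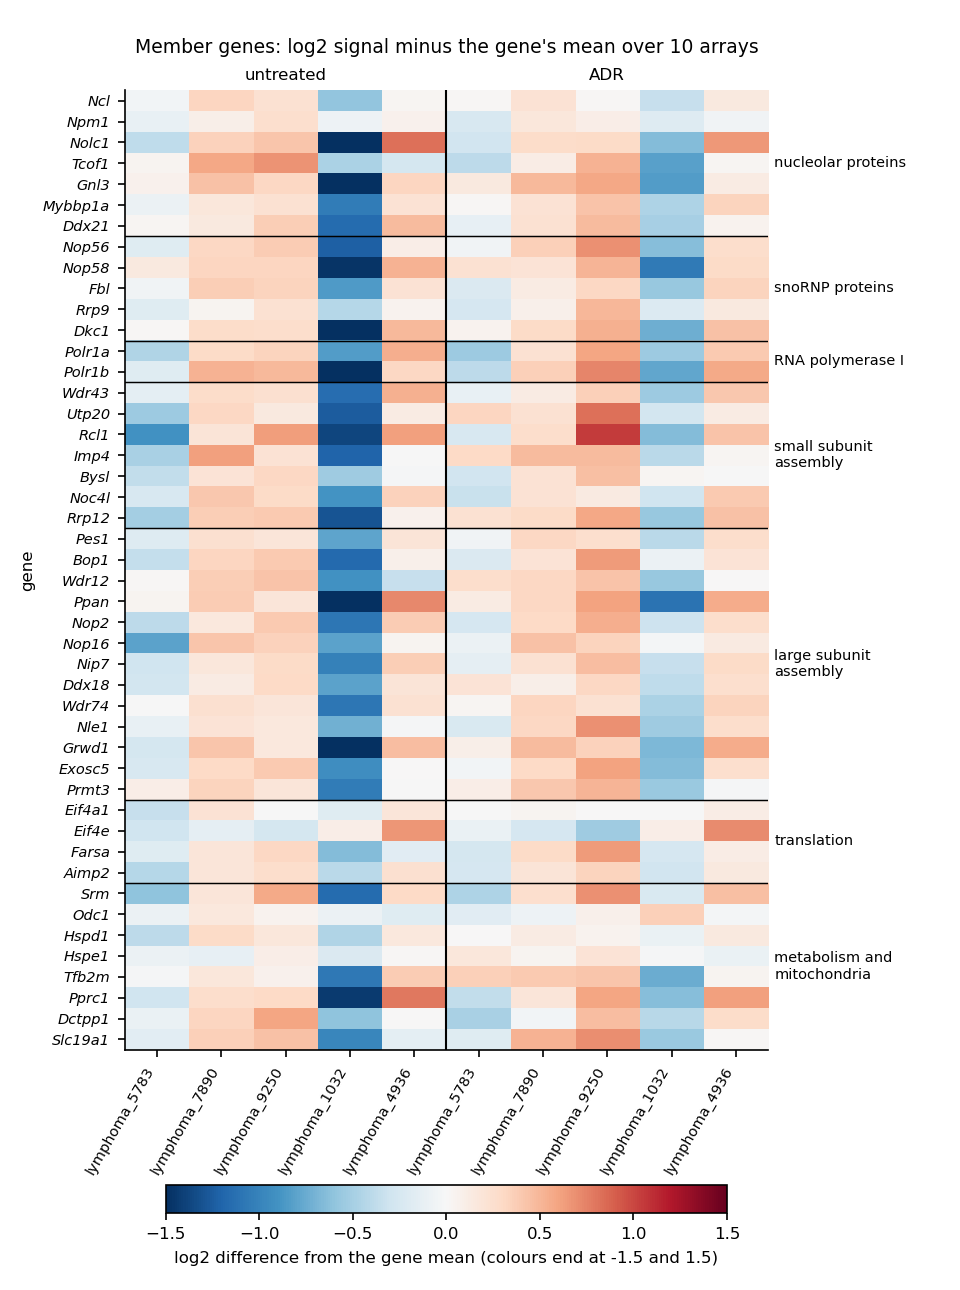
Colours give the log2 signal of each of 46 genes (rows, ordered by role) on each of 10 arrays (columns, untreated left and ADR right) minus the gene's mean over all 10 arrays, with colours ending at -1.5 and 1.5. The column of untreated lymphoma_1032 is the darkest blue for most genes, and the ADR column of that lymphoma is a paler blue.

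**Figure D2:**
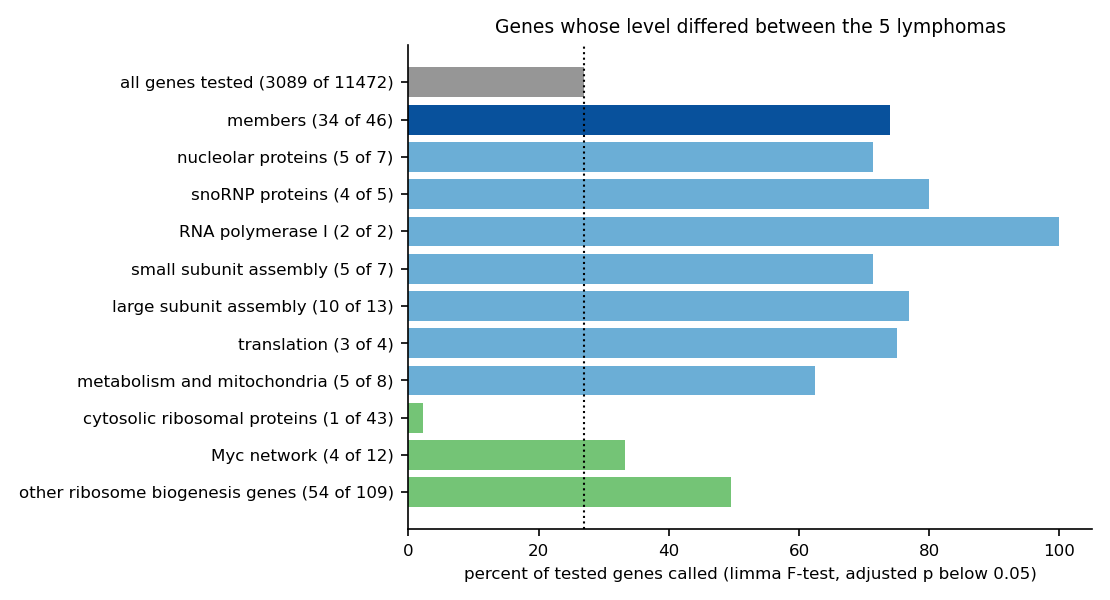
Bars give the percent of tested genes with an adjusted p below 0.05 in the limma F-test between the 5 lymphomas, for all genes (grey, dotted line at 26.9%), the 46 genes (dark blue), their role groups (light blue) and other lists (green). All 7 role groups lie above the dotted line, and of the 3 other lists drawn the cytosolic ribosomal proteins (1 of 43) lie below it.

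Lymphoma_1032 also differed in the genes of other cell types. Its untreated array had a mean of 8.37 over 13 B-cell genes, below the 9.02 to 10.24 of the others, and the ADR array had 7.87 against 8.60 to 10.13. The genes were uneven: 7 of the 13 were lowest in untreated lymphoma_1032, with Ms4a1 at 5.09 and Fcrla at 5.13, whereas Bank1 was highest there at 10.24. Mean signal of 7 T-cell genes was 6.67 and 6.30 on its arrays and 4.71 to 6.07 on the others. This rested mostly on Cd5, a gene that some B cells also express, at 11.26 and 10.71. Without Cd5, left out after its values were seen, the mean was 5.90 and 5.57 in lymphoma_1032 and 4.85 to 5.72 on the others. The defining genes Cd3e, Cd4 and Cd8a did not pass the test between lymphomas (adjusted p of 0.837, 0.834 and 0.654), and Cd3d, Cd3g and Cd247 were under the filter. Of the 7 tested, 2 passed it, Cd5 and Cd28 (adjusted p = 0.0119 for Cd28). Cd28 had 7.35 in untreated lymphoma_1032 and 2.19 to 6.43 on the other untreated arrays. With ADR it had 6.46 there and 6.84 in lymphoma_5783. Macrophage genes (16 tested) averaged 8.36 there without treatment and 9.59 with ADR. They were higher still in untreated lymphoma_7890, at 9.20, whose ribosome biogenesis genes lay a median of 0.28 above their mean, and they were low in lymphoma_9250 and lymphoma_4936, between 5.61 and 5.80 on all 4 arrays. The macrophage genes were uneven too. Of the 16, 0 were lowest in untreated lymphoma_1032, and Cd68 was highest there among the untreated arrays, at 10.91. Ms4a7 had 6.14 there, against 8.93 in untreated lymphoma_5783 and 9.13 in untreated lymphoma_7890. C1qa, C1qb, C1qc, Mrc1, Cd163 and Vsig4 were under the filter. Fibroblast genes (14 tested) averaged 6.82 and 7.32 in lymphoma_1032 and 7.22 and 7.92 in lymphoma_5783, with the other arrays between 5.73 and 6.11. Of the 14, 9 differed between lymphomas, but Col1a1 did not (adjusted p = 0.0922). Col3a1, Postn, Thy1, Pdgfra, Pdgfrb, Lum and Fap were under the filter. The part of these cell types in the level of the 46 genes was not tested, and in bulk RNA fewer cells of a type and less RNA per cell cannot be told apart.

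Myc itself was also lowest in lymphoma_1032. Untreated Myc signals were 10.12, 11.03, 11.89, 9.09 and 11.15, and ADR signals were 11.00, 11.13, 11.96, 9.84 and 11.08. Lymphoma_9250 was highest in both groups, and Myc differed between lymphomas (adjusted p = 0.00702). Transgenic and endogenous Myc were not told apart by the probe set. The change with ADR was 0.35 ± 0.44 (SD, n = 5; adjusted p = 0.599).

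With ADR, 0 of the 46 genes passed the limma test at an adjusted p below 0.05, as did 0% of all genes. The smallest adjusted p among the 46 was 0.565, for Utp20, and 0.551 among all genes. At an unadjusted p below 0.05 there were 2 of the 46, Utp20 and Rrp12, against 8.48% of all genes. The direction was mostly upward in mean: 41 of the 46 genes had a mean change above 0 (89.1%), against 44.8% of all genes, or 61.0% of all genes with arrays centred on their medians, where the 46 genes had 93.5%. Their median change was 0.18, a 1.13-fold higher signal, against -0.02 for all genes. The 95% intervals had a median half-width of 0.30, and for all 46 genes they lay inside a 2-fold change in either direction. Genes higher with ADR in all 5 lymphomas were 8 of the 46, against 4.67% of all genes: Mybbp1a, Nop56, Bysl, Pes1, Wdr74, Grwd1, Exosc5 and Srm. No gene of the 46 was lower in all 5, against 553 of all 11472 genes.

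Most of that upward shift came from lymphoma_1032. Its median change over the 46 genes was 0.52, or 1.44-fold, with 44 genes higher, although the median of all genes on this pair of arrays was -0.17. The medians in lymphoma_5783, lymphoma_7890, lymphoma_9250 and lymphoma_4936 were 0.09, 0.00, 0.17 and 0.05, with 32, 24, 35 and 27 genes higher and all-gene medians of 0.04, -0.01, -0.02 and 0.06. Of all 11472 genes, 6157, 5558, 5397 and 6472 were higher in these lymphomas, and 3947 in lymphoma_1032. The change was largest in lymphoma_1032 for 32 of the 46 genes, against 12.2% of all genes and 12.9% under the stricter filter. Each change is counted from the untreated signal, so the low untreated level of lymphoma_1032 and its large change are not independent observations. After a further quantile normalization, which brings the all-gene median of this pair to 0.00, the median of the 46 genes there was 0.56 and the change was largest in lymphoma_1032 for 38, against 21.4% of all genes. Without lymphoma_1032 the median change of the 46 genes was 0.07, with 32 of them higher (52.8% of all genes were higher). Among the genes described one by one, leaving it out took the mean change to 0.05 for Gnl3, 0.12 for Mybbp1a, 0.16 for Nop56, 0.03 for Polr1b and 0.09 for Pes1. It took it to 0.10 for Bop1, 0.07 for Ppan, 0.17 for Grwd1, 0.21 for Nop16 and 0.12 for Srm.

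For most of the 46 genes the drug-treated cells of lymphoma_1032 did not reach the level of the others. Their ADR array was the lowest of the ADR arrays for 32 of the 46 genes, and for 32 it also lay below every untreated array of the other 4 lymphomas. The shares of all genes were not computed for these counts. This array was low in general, with a median deviation from the gene means of -0.18 over all genes tested. The counts alone therefore do not set these genes apart. For the 46 genes the median deviation went from -1.0 without treatment to -0.47 with ADR in lymphoma_1032, and from 0.29 to 0.47 in lymphoma_9250. Macrophage genes were higher with ADR on this pair by a median of 1.05 and B-cell genes had a median change of -0.60. Macrophage genes were higher by a median of 1.52 in lymphoma_5783, whose ribosome biogenesis genes had a median change of 0.09. Proliferation genes had a median change of -0.71 in lymphoma_1032, and between -1.45 and -0.66 in lymphoma_5783, lymphoma_7890 and lymphoma_9250, but 0.81 in lymphoma_4936. None of the 19 proliferation genes had a mean change above 0. The part of these differences in the change of the 46 genes was not tested.

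**Figure D3:**
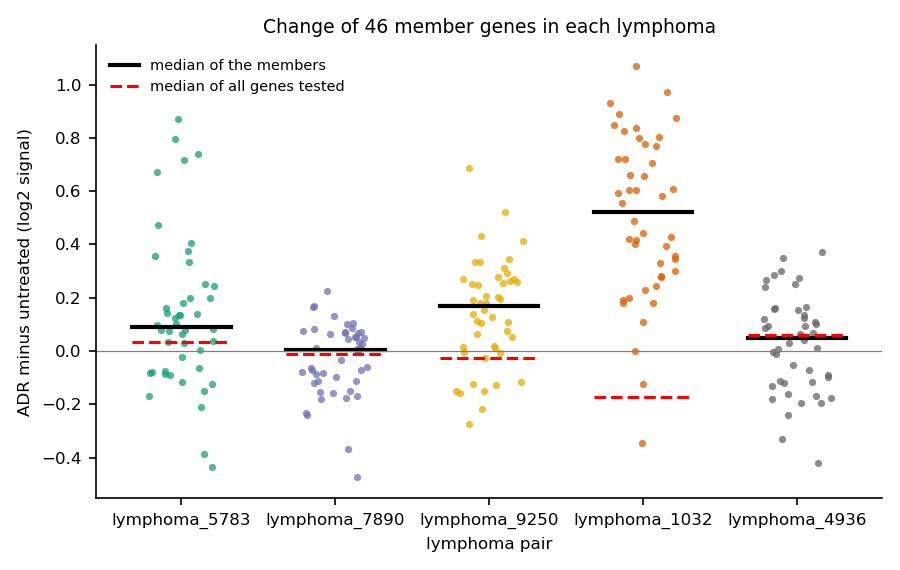
Each point is 1 of 46 genes, placed by its ADR minus untreated difference in log2 signal (vertical axis) within each lymphoma pair (horizontal axis), with black bars at the median of the 46 genes and dashed red bars at the median of all 11472 genes. The bars lie close together in 3 lymphomas, and are 0.52 and -0.17 in lymphoma_1032.

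Nucleolar proteins were 7 of the 46 genes, 5 of which differed between lymphomas and 5 had a mean change above 0 (median 0.05). Gnl3, or nucleostemin, is a GTP-binding protein of the nucleolus that large subunit assembly needs. Untreated Gnl3 signals were 10.41, 10.79, 10.66, 8.69 and 10.67, and ADR signals were 10.49, 10.84, 10.93, 9.51 and 10.48. The lymphoma_1032 arrays lay below the other 8 (adjusted p = 0.0115 between lymphomas), and the change with ADR was 0.20 ± 0.38 (SD, n = 5; adjusted p = 0.706), with the groups overlapping. Mybbp1a, a Myb-binding protein of the nucleolus, had untreated signals of 10.54, 10.79, 10.85, 9.57 and 10.84 and ADR signals of 10.64, 10.85, 11.05, 10.17 and 10.96. It was higher with ADR in every pair, by 0.21 ± 0.22, of which 0.59 stood in lymphoma_1032 and 0.05 to 0.20 in the others (adjusted p = 0.618; 0.0219 between lymphomas).

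Tcof1, the treacle protein that works with RNA polymerase I, had the lowest mean change of the nucleolar group. Its untreated signals were 8.18, 8.72, 8.81, 7.66 and 7.87, and its ADR signals 7.75, 8.25, 8.66, 7.32 and 8.17. It was lower with ADR in 4 pairs and higher in lymphoma_4936, by -0.22 ± 0.32 in mean (adjusted p = 0.653). The nucleolar chaperones varied least of the 7. Npm1 (nucleophosmin) had untreated signals of 12.73, 12.93, 13.10, 12.78 and 12.92 and ADR signals of 12.61, 13.02, 12.95, 12.65 and 12.80, with a change of -0.09 ± 0.10 (adjusted p = 0.804; 0.321 between lymphomas). Ncl (nucleolin) had untreated signals of 12.28, 12.64, 12.55, 11.73 and 12.35 and ADR signals of 12.34, 12.54, 12.34, 11.97 and 12.47. Both its arrays of lymphoma_1032 were below the other 8, yet the F-test missed the threshold (adjusted p = 0.0836). Its mean change was 0.02 ± 0.18. Nolc1, a phosphoprotein that binds snoRNPs, and the RNA helicase Ddx21 both differed between lymphomas and had mean changes of 0.12 and 0.05.

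SnoRNP proteins numbered 5, of which 4 differed between lymphomas and 4 had a mean change above 0 (median 0.11). Nop58, a core protein of box C/D snoRNPs, had the smallest adjusted p of the 46 genes between lymphomas (0.00574). Its untreated signals were 10.08, 10.26, 10.25, 8.46 and 10.46, and its ADR signals 10.16, 10.14, 10.45, 8.88 and 10.22. The other lymphomas spanned less than 1 log2 unit over their 8 arrays, and lymphoma_1032 lay below them on both of its own. The change with ADR was 0.07 ± 0.26, higher in 3 of 5 pairs (adjusted p = 0.886). Its partner Nop56 had untreated signals of 10.51, 10.99, 11.06, 9.46 and 10.78 and ADR signals of 10.63, 11.05, 11.37, 10.04 and 10.94. Nop56 was higher with ADR in all 5 pairs, by 0.25 ± 0.21 (adjusted p = 0.587), and differed between lymphomas (adjusted p = 0.00921). Fbl (fibrillarin), the methyltransferase of the same particles, had untreated signals of 11.00, 11.41, 11.38, 10.19 and 11.26 and ADR signals of 10.83, 11.17, 11.35, 10.47 and 11.37. Its mean change was -0.01 ± 0.21 and turned to 0.07 with arrays centred on their medians, while the lymphomas differed (adjusted p = 0.0224). Dkc1 (dyskerin, the pseudouridine synthase of box H/ACA snoRNPs) and Rrp9 had mean changes of 0.23 and 0.11, and Dkc1 alone of these differed between lymphomas.

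RNA polymerase I was represented by its largest subunits, Polr1a and Polr1b, and both differed between lymphomas. Polr1a had untreated signals of 7.56, 8.31, 8.35, 7.17 and 8.57 and ADR signals of 7.47, 8.24, 8.61, 7.47 and 8.41 (adjusted p = 0.0104). It was low in lymphoma_5783 as well as in lymphoma_1032, and it still passed the test without lymphoma_1032. Polr1b had untreated signals of 8.17, 8.87, 8.84, 6.73 and 8.66 and ADR signals of 7.96, 8.71, 9.08, 7.57 and 8.92 (adjusted p = 0.0115). Mean changes with ADR were 0.05 ± 0.22 for Polr1a and 0.19 ± 0.42 for Polr1b, with adjusted p of 0.915 and 0.734, and the lymphoma_1032 pair alone differed by 0.84 for Polr1b.

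Small subunit assembly factors had the largest median change of the 7 groups, 0.34, with 7 of 7 above 0 in mean, and 5 of 7 differed between lymphomas. Without lymphoma_1032 the median was 0.23 with 5 of 7 above 0. Utp20, a component of the early small subunit processome, had untreated signals of 7.34, 8.20, 8.03, 6.64 and 8.01 and ADR signals of 8.21, 8.12, 8.72, 7.61 and 8.02. Its change was 0.49 ± 0.49, the highest mean of the 46 genes, with 0.87, 0.69 and 0.97 in lymphoma_5783, lymphoma_9250 and lymphoma_1032 and -0.08 and 0.01 in the other pairs (adjusted p = 0.565). Rrp12, an export factor of the subunits, had a mean change of 0.39 ± 0.35 with the same adjusted p. Rcl1, which takes part in cleavage of the precursor RNA, had untreated signals of 8.90, 10.01, 10.44, 8.44 and 10.43 and ADR signals of 9.57, 10.08, 10.86, 9.16 and 10.23. Its change was 0.34 ± 0.39 (adjusted p = 0.585), the lymphomas differed (adjusted p = 0.00932), and lymphoma_5783 lay next to lymphoma_1032.

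Imp4, a protein of the U3 particle whose promoter stretch is printed at the head of the results, had a mean change of 0.35 ± 0.44 and differed between lymphomas (adjusted p = 0.0455). Its other probe sets had mean changes of -0.05 and 0.10. Noc4l had the lowest mean change in the group. Its untreated signals were 8.38, 9.02, 8.91, 7.72 and 8.97, and its ADR signals 8.29, 8.84, 8.75, 8.33 and 9.01. The mean of 0.04 ± 0.32 came from a difference of 0.60 in lymphoma_1032 against -0.18 to 0.04 in the others, and it was -0.09 without lymphoma_1032. Wdr43 and Bysl had mean changes of 0.10 and 0.16, and Wdr43 but not Bysl differed between lymphomas.

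Large subunit assembly factors were the largest group. All 13 had a mean change above 0 (median 0.20), also without lymphoma_1032 (median 0.10), and 10 of 13 differed between lymphomas with that lymphoma included and 0 without it. Pes1 and Bop1, which form a complex with Wdr12 that processes the precursor of the large subunit RNA, differed in spread. Untreated Pes1 signals were 9.21, 9.65, 9.58, 8.61 and 9.60 and ADR signals 9.35, 9.72, 9.66, 9.00 and 9.67, a change of 0.15 ± 0.14 with the same direction in every pair (adjusted p = 0.682; 0.0276 between lymphomas). Untreated Bop1 signals were 8.39, 9.06, 9.14, 7.59 and 8.82 and ADR signals 8.53, 8.95, 9.39, 8.65 and 8.96. The Bop1 change was 0.30 ± 0.45 with 1.07 in lymphoma_1032 alone, the largest single difference of the 46 genes (adjusted p = 0.64; 0.0753 between lymphomas). Averaged over every probe set of the gene, the change was 0.37 for Pes1, whose other probe set had 0.59, and 0.18 for Bop1, whose other probe set had 0.06. Wdr12 had a mean change of 0.18 and differed between lymphomas (adjusted p = 0.0157).

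Ppan, the mouse counterpart of Peter Pan, had untreated signals of 8.75, 9.08, 8.88, 6.90 and 9.42 and ADR signals of 8.83, 9.01, 9.31, 7.60 and 9.26 (adjusted p = 0.00599 between lymphomas). Grwd1, a WD-repeat protein of large subunit assembly, had untreated signals of 8.15, 8.84, 8.58, 6.87 and 8.88 and ADR signals of 8.51, 8.89, 8.76, 7.74 and 8.97 (adjusted p = 0.0112 between lymphomas). For both genes the lymphoma_1032 arrays lay below the other 8. The change with ADR was 0.20 ± 0.36 for Ppan, upward in 3 pairs, and 0.31 ± 0.34 for Grwd1, upward in 5, with adjusted p of 0.707 and 0.581. Exosc5, a subunit of the RNA exosome, had untreated signals of 8.76, 9.30, 9.39, 8.07 and 9.01 and ADR signals of 8.96, 9.30, 9.60, 8.35 and 9.25. Its change was 0.19 ± 0.11, within 0.01 to 0.28 in every pair (adjusted p = 0.614), and its lymphomas differed (adjusted p = 0.00904).

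Nop16 had the largest mean change of the large subunit group. Its untreated signals were 8.49, 9.71, 9.64, 8.49 and 9.34, and its ADR signals 9.20, 9.73, 9.63, 9.27 and 9.43. Lymphoma_5783 and lymphoma_1032 were the low pair and also the ones that differed with ADR, by 0.72 and 0.78, while the others differed by -0.01 to 0.10. The low level and the difference share the same untreated arrays and are not independent. The mean change was 0.32 ± 0.39 (adjusted p = 0.599; 0.0764 between lymphomas). Ddx18, an RNA helicase, had the same low pair, with untreated signals of 9.30, 9.69, 9.87, 8.76 and 9.76 and ADR signals of 9.77, 9.65, 9.88, 9.18 and 9.82. Its change was 0.19 ± 0.24 (adjusted p = 0.665; 0.0537 between lymphomas). The RNA methyltransferase Nop2, the assembly factors Nip7, Wdr74 and Nle1 and the arginine methyltransferase Prmt3, which modifies a ribosomal protein, had mean changes between 0.18 and 0.22 and all 5 differed between lymphomas. Prmt3 was counted in this group though it is an enzyme that modifies proteins rather than an assembly factor. The other probe set of Nip7 had a mean change of -0.17, and those of Prmt3 that passed the filter had -0.12 and 0.07.

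**Figure D4:**
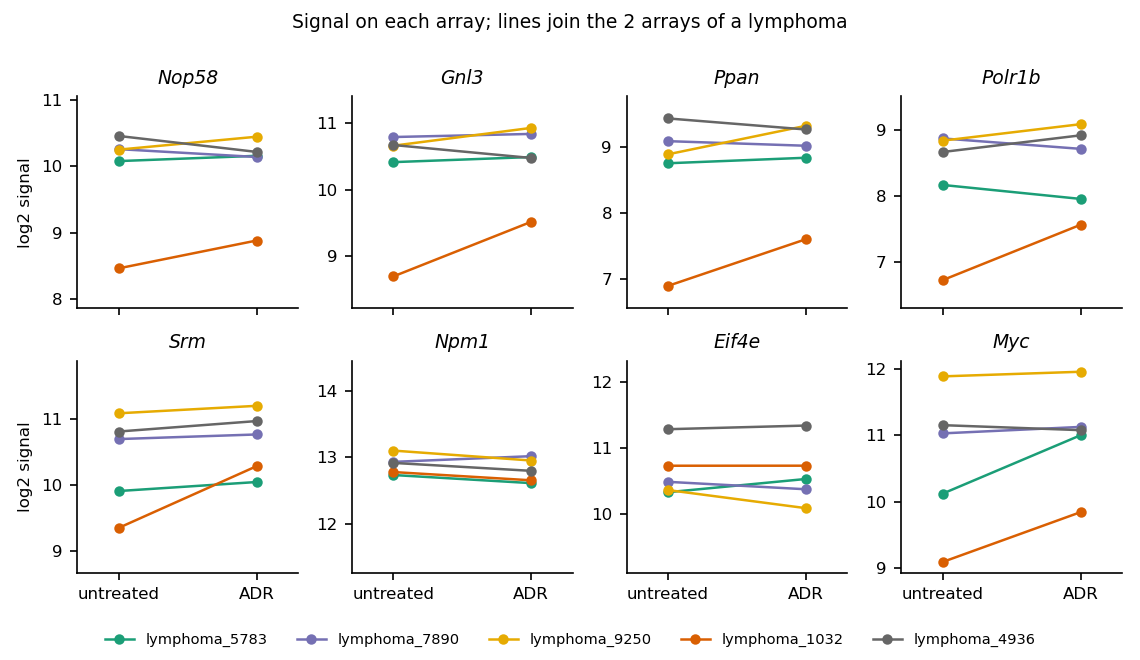
Panels give the log2 signal (vertical axis, a range of its own for each gene) on the untreated and the ADR array for 7 of the 46 genes and Myc, with a line for each lymphoma. Lymphoma_1032 is the lowest line for Nop58, Gnl3, Ppan, Polr1b and Myc and lies among the others for Npm1 and Eif4e.

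Translation genes were 4, of which 3 differed between lymphomas and 3 had a mean change above 0 (median 0.06). Eif4e, the cap-binding initiation factor, had an order of its own. Untreated Eif4e signals were 10.34, 10.49, 10.37, 10.74 and 11.29, and ADR signals were 10.54, 10.38, 10.10, 10.74 and 11.34. Lymphoma_4936 was highest on both arrays (adjusted p = 0.0211 between lymphomas), and lymphoma_1032 lay second. The change of -0.03 ± 0.18 turned to 0.05 with arrays centred on their medians. Farsa, a subunit of phenylalanyl-tRNA synthetase, had untreated signals of 8.25, 8.61, 8.74, 7.78 and 8.26 and ADR signals of 8.17, 8.72, 9.08, 8.18 and 8.55, with a change of 0.21 ± 0.20 (adjusted p = 0.618; 0.0384 between lymphomas). Other Farsa probe sets that passed the filter went the other way, with mean changes of -0.05 and -0.31. The initiation factor helicase Eif4a1 and Aimp2, a scaffold of the tRNA synthetase complex, had mean changes of 0.06 and 0.05, and Eif4a1 did not differ between lymphomas (adjusted p = 0.509).

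Metabolic and mitochondrial genes were 8, of which 5 differed between lymphomas and 7 had a mean change above 0 (median 0.14). The polyamine enzymes differed from each other. Srm (spermidine synthase) had untreated signals of 9.91, 10.69, 11.08, 9.35 and 10.81 and ADR signals of 10.04, 10.76, 11.19, 10.28 and 10.96. It was higher with ADR in all 5 pairs, by 0.93 in lymphoma_1032 and by 0.07 to 0.16 in the others, in mean 0.28 ± 0.37 (adjusted p = 0.614; 0.0207 between lymphomas). Odc1 (ornithine decarboxylase, the first enzyme of the pathway) had untreated signals of 10.97, 11.21, 11.11, 10.97 and 10.88 and ADR signals of 10.89, 10.98, 11.13, 11.41 and 11.03. Lymphoma_1032 was not low in Odc1 and had the highest ADR signal, and neither test passed (adjusted p = 0.896 for ADR and 0.728 between lymphomas). Its mean change was 0.06 ± 0.26.

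Slc19a1, the reduced folate carrier, had untreated signals of 8.64, 9.16, 9.24, 7.82 and 8.66 and ADR signals of 8.62, 9.33, 9.50, 8.25 and 8.82. Its lymphomas differed (adjusted p = 0.00926) and its change was 0.20 ± 0.16, upward in 4 of 5 pairs (adjusted p = 0.616). Dctpp1, a pyrophosphatase that clears modified deoxycytidine triphosphate, had untreated signals of 9.13, 9.56, 9.83, 8.64 and 9.25 and ADR signals of 8.75, 9.20, 9.70, 8.82 and 9.52. It was lower with ADR in lymphoma_5783, lymphoma_7890 and lymphoma_9250 and higher in the other pairs, in mean -0.09 ± 0.30 (adjusted p = 0.861; 0.0482 between lymphomas). The mitochondrial chaperonins Hspd1 and Hspe1 had mean changes of 0.10 and 0.12 and did not pass the test between lymphomas (adjusted p of 0.26 and 0.676). Tfb2m, a mitochondrial transcription factor, and the coactivator Pprc1 had mean changes of 0.19 and 0.15 and both differed between lymphomas.

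**Figure D5:**
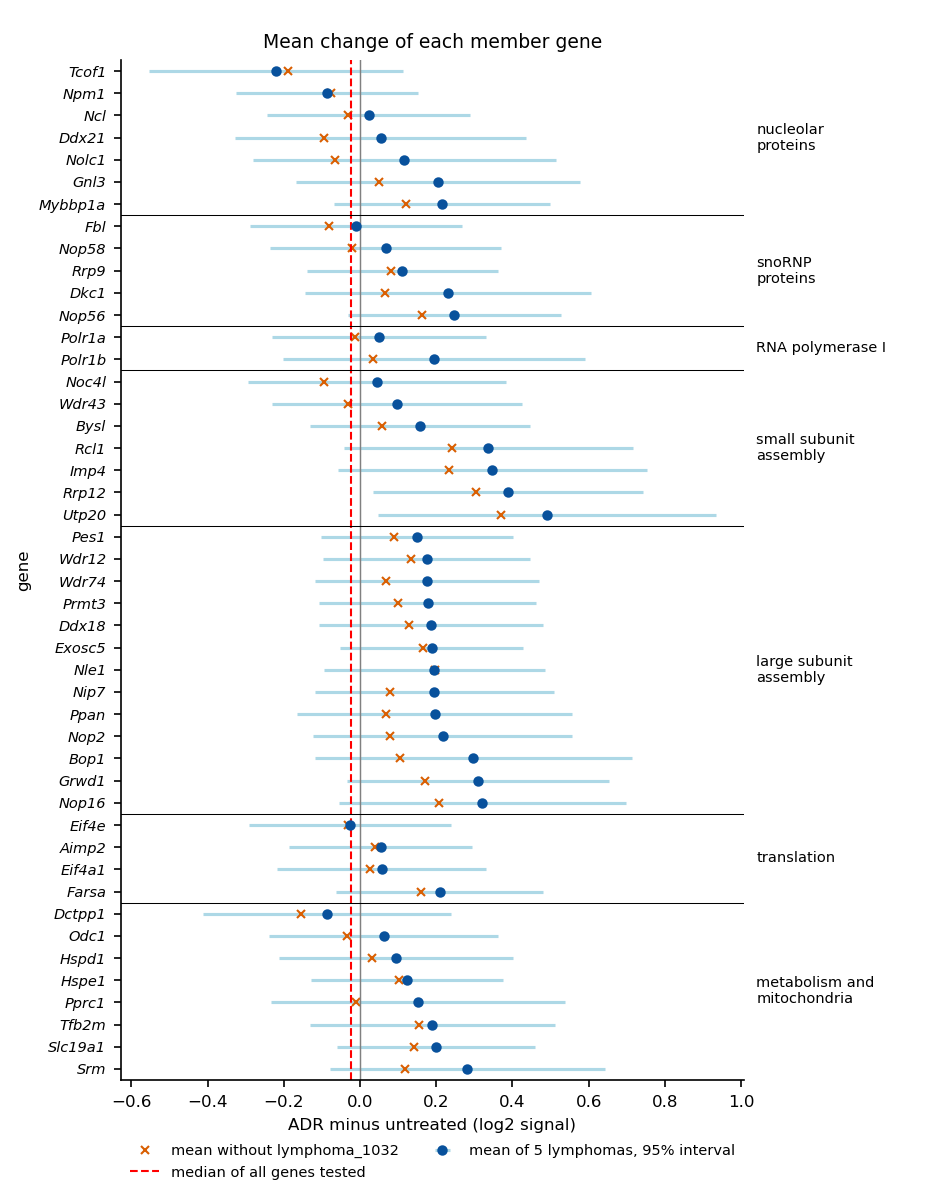
Dots give the mean ADR minus untreated difference in log2 signal of each of 46 genes (vertical axis, by role) over 5 lymphomas with its 95% limma interval, crosses the mean without lymphoma_1032, and the dashed line the median of all genes (-0.02). Dots lie right of 0 for 41 genes, and crosses for 32.

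Other genes of the pathway were also mostly lowest in lymphoma_1032, with a median deviation of -0.70 on its untreated array. Of 109 tested genes of RNA polymerase I, snoRNPs and subunit assembly beyond the 46, 92 had their lowest untreated signal in lymphoma_1032 (84.4%), 54 differed between lymphomas (49.5%), and 2 did so without lymphoma_1032. The lists within them were uneven: 8 of 13 other RNA polymerase I genes differed between lymphomas, 2 of 11 other snoRNP genes (18.2%), 23 of 43 small subunit factors and 21 of 42 large subunit factors. Lowest in untreated lymphoma_1032 were 8 of 13, 10 of 11, 37 of 43 and 37 of 42. Over the 109 genes 80 had a mean change above 0 (median 0.10), 0 passed the ADR test, and the medians by lymphoma were 0.13, -0.01, 0.07, 0.32 and -0.02. Tsr2, which handles a ribosomal protein before assembly, and Sdad1 had the smallest adjusted p between lymphomas among them, 0.00356 and 0.00446, with the other untreated lymphomas 1.61 and 1.76 above lymphoma_1032. The Pol I factor Ubtf also differed (adjusted p = 0.0113).

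The ribosomal proteins, the finished parts of the particle, differed little between arrays. Lowest in untreated lymphoma_1032 were 21 of 43 (48.8%), against 25.4% of all genes. Among the 43 tested genes of cytosolic ribosomal proteins, 1 differed between lymphomas (Rpl12, adjusted p = 0.0127), the median SD over untreated lymphomas was 0.05, and 18 had a mean change above 0 (median -0.01). Their median untreated signal was 13.44, close to the highest signal of the untreated arrays, 14.04 to 14.45. Whether differences are compressed at that end of the range was not tested. Of 12 tested genes of the Myc network 4 differed between lymphomas (33.3%, against 26.9% of all genes): Myc, the Max partners Mxi1 and Mnt, and Mga. The untreated signals of these 4 in the other lymphomas exceeded lymphoma_1032 by 1.96, 0.36, 0.92 and 1.32. Of all 12, 6 were lowest in untreated lymphoma_1032 (50%, against 25.4% of all genes), and the median deviation there was -0.19.

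The 46 genes had 54 further probe sets, of which 46, for 29 genes, passed the filter. Of these 37 were lowest in untreated lymphoma_1032, 29 had a mean change above 0 and 35 had the sign of the chosen probe set.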

How the data were processed

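Total RNA from 10 cultures of 5 lymphomas was hybridised to Affymetrix mouse expression arrays, 5 untreated and 5 with ADR. The authors deposited a table of log2 signals by probe set, and the submitters' processing notes name RMA and Partek for it. Versions and settings were not found in the labels, nor was the base of the logarithm, which was taken as 2 from the range of the values. RMA usually brings arrays to a like distribution, from which the ADR array of lymphoma_1032 departed. No further normalization was applied in the main setting. Depth does not apply to arrays, and their number, 5 per group, limits the precision.

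The annotation gave a single symbol to 34945 of 45101 probe sets, several symbols to 932 and none to 9224, control probe sets (64) included. A gene was tested if its signal exceeded 4.43, the median of the table, on 5 arrays or more, which held for 11472 genes. The stricter filter used the 70th percentile, 6.21. In R 4.3.3, limma 3.58.1 (lmFit, eBayes) fitted each gene to its lymphoma, as a block, and to ADR minus untreated. A moderated F-test on the 4 lymphoma coefficients of the same fit compared lymphomas. Tests were two-sided with Benjamini-Hochberg adjustment over all genes tested and a threshold of 0.05. The fit was tested on simulated data. Same-numbered arrays come from the same lymphoma, per the labels, and the arrays of a pair deviated together from their group means, with correlations of 0.51 to 0.79 across genes.

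The 48 genes and all lists were chosen with earlier results of these data known. Genes given with values per array were the 10 genes with the smallest p between lymphomas, the highest and lowest mean change in each of 7 role groups, and Ncl, Npm1, Nop56, Fbl, Polr1b, Bop1, Ddx18, Odc1, Srm and Eif4e, with Myc for context. Mki67, also named for context, had a change of -0.85 ± 0.84 (SD, n = 5; adjusted p = 0.565). Alternatives changed the block, filter, probe set rule, normalization, centring, prior and array weights, or left out each lymphoma. Promoter windows came from a RefSeq table (GRCm38.p6), and the build of the arrays' annotation was not used.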

Additional observations from a re-analysis of the deposited data

Results flagged for a closer look

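Among 85 groups of 5 values checked, which included untreated signals, ADR signals and changes of the genes given array by array, 11 held 1 value far from the other 4. Chance alone marks about 1 in 20 independent groups. These groups share arrays, and many of the genes were chosen by their differences in these data. The count is therefore a description and no measure of an excess over chance. In 10 of the 11 that value came from lymphoma_1032. Untreated signals were 8.69 for Gnl3 (others 10.41 to 10.79), 9.57 for Mybbp1a (10.54 to 10.85), 8.46 for Nop58 (10.08 to 10.46) and 6.90 for Ppan (8.75 to 9.42). ADR signals were 8.88 for Nop58 (others 10.14 to 10.45) and 7.60 for Ppan (8.83 to 9.31). Changes with ADR were 0.59 for Mybbp1a (others 0.05 to 0.20), 0.60 for Noc4l (-0.18 to 0.04), 0.40 for Pes1 (0.07 to 0.14) and 0.93 for Srm (0.07 to 0.16). The remaining one was the Npm1 change of 0.086 in lymphoma_7890, against -0.15 to -0.12 in the others.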

How the results depend on the processing

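The count of the 46 genes that differed between lymphomas was 34 and moved to 20 with arrays centred on their medians. It lay between 5 and 32 when each lymphoma was left out, lowest without lymphoma_1032, and all genes called lay between 1179 and 2796, also lowest without lymphoma_1032. Under the other alternatives run it stayed between 28 and 41. Without the block for the paired arrays the count of the 46 genes called for ADR was 0, the smallest adjusted p was 1.00, and the median change stayed at 0.18. That count was 0 under every alternative run, with 0 to 4 genes at an unadjusted p below 0.05. The median change of the 46 genes lay between 0.07 (without lymphoma_1032) and 0.26 (arrays centred on their medians).

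Mean changes near 0 turned sign. With centred arrays Eif4e was 0.054 and Fbl 0.070. With array weights Ncl was -0.033, Noc4l -0.045 and Odc1 -0.018. Leaving out each lymphoma gave -0.082 to 0.036 for Eif4e, -0.082 to 0.048 for Fbl, -0.032 to 0.083 for Ncl, -0.095 to 0.10 for Noc4l, -0.021 to 0.14 for Nop58, -0.034 to 0.14 for Odc1 and -0.014 to 0.10 for Polr1a. Larger mean changes that moved by over 1.5 times included Pes1 (0.23) and Tcof1 (-0.14) with centred arrays, Bop1 (0.18) and Polr1b (0.09) with array weights, Ddx18 (0.11), Myc (0.21) and Polr1b (0.29) without lymphoma_5783, and Tcof1 (-0.35) without lymphoma_4936. The cause was not tested. With 5 pairs the 95% intervals had a median half-width of 0.30, against a median change of 0.18. Most ribosomal protein signals lay near the top of the range, where a difference may not be measurable.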
